A study of Mus musculus with 6 samples.

Results

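The activity-regulated early genes examined here are 10 genes that neurons switch on within minutes to hours of being excited: Npas4, Egr1, Egr2, Egr3, Egr4, Nr4a1, Nr4a2, Nr4a3, Arc and Homer1. They were chosen by name, as known members of this class, under a rule that uses no measured value. Earlier results of these data were known when they were chosen. All 10 were found among the 41386 genes of the deposited table, each on 1 row, and all 10 passed the filter on low counts that left 18569 genes for testing. RNA-seq of mouse hippocampus compared 3 libraries taken after cerebral ischemia and reperfusion (I/R) with 3 libraries taken after sham operation. In the I/R group the middle cerebral artery was occluded for 1.5 h with a filament, and blood flow was then allowed to return for 24 h. The sham group had the same anesthesia and surgery without the filament. All mice were wild type, of the strain C57BL/6 (C57BL/6J in the study's methods) and 56 days old, and per the study's methods they were males and the hippocampus was taken from the side of the occlusion. Each library held RNA of several hippocampi put together, so the spread given here is a spread between pools and p-values measure no more than that. The model has 1 time point after reperfusion, and the tissue holds glia, vessels and blood cells beside neurons.

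When a neuron is excited, calcium enters through NMDA-type glutamate receptors and voltage-gated calcium channels, kinases carry the signal to the nucleus, and transcription factors that are already present there, such as CREB, SRF and MEF2, start the early genes without new protein synthesis. Most of the 10 genes encode transcription factors that act on later genes: the neuron-restricted factor NPAS4, the zinc-finger factors EGR1 to EGR4 and the orphan nuclear receptors NR4A1 to NR4A3. Arc and Homer1 encode proteins of the synapse. In the hippocampus these genes are used as marks of recently active neurons and have been tied to synaptic plasticity and memory, but several, the Egr and Nr4a genes above all, are also induced in glia, endothelium and immune cells by growth factors and injury.

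CREB binds the cAMP response element (CRE), and upstream sequences are shown here for its letters in members that rose, fell and did neither. RefSeq promoter windows of GRCm38.p6, the 250 bases before the transcript start, were used here for 7 of the 10 genes (12 windows). No window of Arc, Egr1 or Egr3 was among them. Capitals mark TGACG or, on the other strand, CGTCA, the core of the CRE. The windows, 5′ to 3′ on the gene's strand, were chr19:4989972-4990221 (minus strand) for Npas4, chr10:67537620-67537869 (plus) for Egr2, chr6:85513590-85513839 (minus) for Egr4, chr4:48045055-48045304 (plus) for Nr4a3 and chr13:93303507-93303756 (plus) for Homer1.
Npas4: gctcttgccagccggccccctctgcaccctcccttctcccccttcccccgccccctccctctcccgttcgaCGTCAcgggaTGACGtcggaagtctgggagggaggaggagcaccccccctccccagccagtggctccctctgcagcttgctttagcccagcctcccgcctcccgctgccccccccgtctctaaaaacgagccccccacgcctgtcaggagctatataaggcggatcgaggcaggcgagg
Egr2: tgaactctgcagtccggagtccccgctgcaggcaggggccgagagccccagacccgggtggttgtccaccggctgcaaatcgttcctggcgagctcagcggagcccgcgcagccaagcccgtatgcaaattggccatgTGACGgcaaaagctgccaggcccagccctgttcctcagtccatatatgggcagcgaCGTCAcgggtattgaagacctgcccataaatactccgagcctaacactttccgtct
Egr4: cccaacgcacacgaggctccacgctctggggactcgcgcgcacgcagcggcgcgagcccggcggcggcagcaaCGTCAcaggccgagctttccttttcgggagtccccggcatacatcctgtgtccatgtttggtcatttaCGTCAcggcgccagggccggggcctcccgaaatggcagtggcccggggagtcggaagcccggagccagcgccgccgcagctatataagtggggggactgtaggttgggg
Nr4a3: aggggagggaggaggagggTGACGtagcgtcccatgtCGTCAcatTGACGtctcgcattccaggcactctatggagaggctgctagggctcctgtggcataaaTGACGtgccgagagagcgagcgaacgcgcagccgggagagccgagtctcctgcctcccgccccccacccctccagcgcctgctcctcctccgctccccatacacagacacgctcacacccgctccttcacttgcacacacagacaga
Homer1: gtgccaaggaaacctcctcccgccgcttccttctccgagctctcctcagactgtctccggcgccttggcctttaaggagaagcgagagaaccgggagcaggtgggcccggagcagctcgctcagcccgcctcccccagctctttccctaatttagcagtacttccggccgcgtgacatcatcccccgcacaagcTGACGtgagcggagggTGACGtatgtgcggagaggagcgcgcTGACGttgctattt

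TGACG was found on either strand in at least 1 window of all 7 genes, against 17.8% of the 32851 promoter windows in the table. Egr2 held it in 3 of its 5 windows, which overlap in part, and Homer1 in 1 of 2. Members are counted per gene and the background per window, so these 2 genes had more windows in which to match. The number of copies in the window with most was 2 for Npas4, Egr2 and Egr4, 3 for Homer1 and 4 for each Nr4a gene, and 3.9% of all windows held 2 or more. The longer TGACGT, which contains TGACG, was found in 5 of the 7 genes and in 6.47% of all windows. The full palindrome TGACGTCA, which contains both shorter strings, was in 0 of the 7 and in 1.55% of all windows. In Npas4 the 2 copies lay 179 and 169 bases before the start and a TATA box (searched as TATANAA, in 10.4% of all windows) lay 28 bases before it. In Egr4 the copies lay 177 and 109 bases before the start and the TATA box 29 bases before it. In Egr2 the copies lay 112 and 56 bases before the start, with a CArG box, the site of SRF, 73 bases before it, and 1.47% of all windows held a CArG box. The Nr4a1 and Nr4a2 windows each held an EGR site (GCGNGGGCG, in 4.7% of all windows), at 60 and 74 bases before the start. Both strands were searched for each motif. These are matches of letters. The genes that share them moved in different directions, as the values below show.

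Libraries held 37493042 to 44788547 counts in all, so that 3 counts, taken as the floor of detection, corresponded to at most 0.0872 CPM. CPM are counts made relative to the size of the library, with sizes scaled by TMM, the trimmed mean of M-values. A gene was called higher or lower when its fold change exceeded 1.2 and its p in edgeR's quasi-likelihood test, after Benjamini-Hochberg adjustment across the 18569 genes, was under 0.05. Libraries differed in ways that the groups do not explain. The summed level of 8 choroid plexus markers was 139 CPM in I/R replicate 3 and 171 CPM in sham replicate 1, against 2268 to 6226 CPM in the other 4 libraries. I/R replicate 1 lay furthest from sham for most cell type lists given below, and the effect of leaving out each of these libraries is given beside the members whose call it changed.

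The 10 genes split by direction. After I/R, Npas4, Egr2, Arc and Egr1 rose, Egr3, Nr4a2, Egr4 and Nr4a3 fell, and Nr4a1 and Homer1 passed the test in neither direction. Of all genes tested, 21.8% were called higher and 19.9% lower, so changes of either kind were common in this comparison and 8 of 10 called stood beside 41.8% of all genes. The median log2 fold change of the 10 was -0.12, and that of all genes tested was 0.03. In 4 members the I/R libraries all lay above the sham libraries and in 5 all below, against 29.3% and 28.1% of genes tested (57.4% for either). With a fold over 2 demanded, Npas4, Egr2 and Arc were called higher, as were 10.2% of all genes, and Nr4a2, Egr4 and Nr4a3 lower, as were 4.67%. In bulk tissue, fewer cells of a type and less RNA per cell cannot be told apart, and this holds for each fall given below. An exact two-sided permutation test of CPM gave p = 0.1 for 9 members, which is the smallest p that 3 libraries against 3 can give, and p = 0.9 for Homer1.

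**Figure D1:**
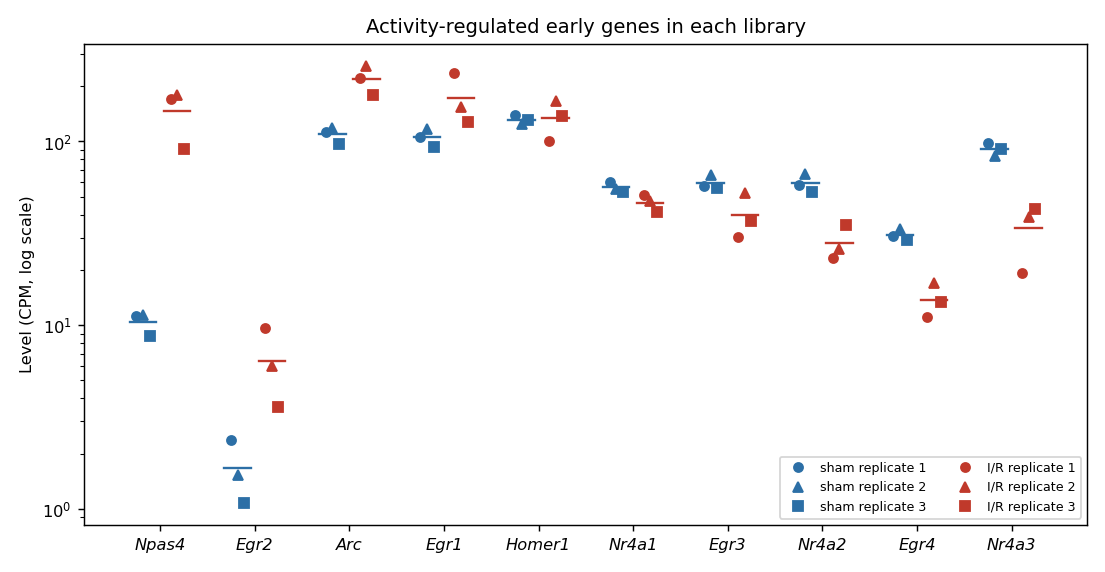
Level of each of the 10 genes in each library (CPM, logarithmic axis), with sham in blue, I/R in red, 1 symbol per replicate and a bar at the group mean. Npas4 went from 8.72 to 11.4 CPM in sham to 90.5 to 179 CPM in I/R, Homer1 overlapped, and Nr4a3, at the right, lay between 83.6 and 97.8 CPM in sham and between 19.2 and 43.0 CPM in I/R.

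Npas4 had the largest rise of the 10. It encodes a bHLH-PAS transcription factor that is induced by calcium entry in neurons and shapes the inhibitory synapses that a neuron receives. It lies on chromosome 19 from 1797749 to 1803365 on the minus strand (BALB/cJ assembly, as in the table). Replicates 1, 2 and 3 had 171, 179 and 90.5 CPM after I/R and 11.2, 11.4 and 8.72 CPM after sham operation, an order of replicates kept for every gene below. All I/R libraries were far above all sham libraries, and I/R replicate 3 was the lowest of its group. Behind these levels stood 3619 to 7771 counts per I/R library and 300 to 463 per sham library. The mean rose from 10.5 ± 1.50 to 147 ± 49.0 CPM (SD, n = 3), a 14.0-fold rise, or a log2 fold change of 3.81 (SE 0.27, 95% interval 3.18 to 4.44, edgeR adjusted p 0.000238). By p-value it ranked 58 of the 18569 genes tested. ARNT2, a partner with which NPAS4 binds DNA, moved less and the other way, since Arnt2 fell from 358 ± 16.6 to 278 ± 19.2 CPM (log2 fold change -0.36, SE 0.10, edgeR adjusted p 0.0235). Arnt, which encodes a related partner, was at 35.2 ± 2.22 CPM in sham and 42.0 ± 4.10 CPM in I/R and was not called (log2 fold change 0.25, edgeR adjusted p 0.0839).

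The 4 Egr genes did not move together. They encode zinc-finger factors with nearly the same DNA-binding domain, and EGR1 is the one most used as a mark of neuronal activity. Egr2 and Egr1 rose, and Egr3 and Egr4 fell.

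Egr2, known also for its role in myelination, lies on chromosome 10 from 65254179 to 65260892 on the plus strand. It was the least abundant member, at 9.62, 6.00 and 3.58 CPM in I/R and 2.38, 1.53 and 1.08 CPM in sham. The groups did not overlap, but replicates within each group differed by more than for any other member, with a coefficient of variation (CV, the SD as a percent of the mean) of 47.5% in I/R and 40.0% in sham. Each I/R library held 143 to 438 of its counts and each sham library 37 to 93, well above the floor. The rise was 3.84-fold (log2 fold change 1.94, SE 0.42, 95% interval 0.97 to 2.91, edgeR adjusted p 0.00799).

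Egr1, on the plus strand of chromosome 18, was at 236, 153 and 128 CPM in I/R and 106, 116 and 93.6 CPM in sham. The lowest I/R library was above the highest sham library, and I/R replicate 1 stood well above the other two. The mean rose 1.64-fold from 105 ± 11.3 to 172 ± 56.9 CPM (log2 fold change 0.71, SE 0.21, 95% interval 0.21 to 1.21, edgeR adjusted p 0.0301). Leaving out I/R replicate 1 lowered the log2 fold change to 0.41, and the gene was still called. The call was lost when sham replicate 1, 2 or 3 was left out (edgeR adjusted p of 0.0863, 0.0696 and 0.110). It was also lost when no filter on low counts was used (edgeR adjusted p 0.0560). Calls over all genes were 5611, 5330 and 5480 without sham replicates 1, 2 and 3, in place of 7756. The log2 fold change of Egr1 without sham replicate 1 was 0.71. Over all alternatives the adjusted p ran from 0.00379 to 0.110, so that Egr1 was the least firm of the 4 rises.

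Egr3 has roles in learning and in muscle spindles and lies on chromosome 14 from 63100633 to 63103345 on the plus strand. It was at 30.1, 52.2 and 36.9 CPM in I/R and 57.5, 65.5 and 56.1 CPM in sham. Every I/R library was below every sham library, and I/R replicate 2 came within a few CPM of the sham group. It fell by 0.59 on the log2 scale, from 59.7 ± 5.06 to 39.7 ± 11.3 CPM (SE 0.19, 95% interval -1.03 to -0.15, edgeR adjusted p 0.0371). This call was lost without I/R replicate 3 (edgeR adjusted p 0.0774) and without sham replicate 1, 2 or 3 (0.0796, 0.126 and 0.0737). It was also lost with libraries scaled to their total count only (log2 fold change -0.34, edgeR adjusted p 0.139). Without sham replicate 1 the log2 fold change of Egr3 was -0.62. Fewer of all genes were called without a sham library, as given for Egr1. With the choroid plexus level as a covariate the adjusted p was 0.0505, and over all alternatives it ran from 0.00614 to 0.143.

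Egr4 lies on chromosome 6 from 83373362 to 83375830 on the minus strand. It was at 11.1, 16.9 and 13.3 CPM in I/R and 30.5, 33.4 and 28.9 CPM in sham. The groups were well apart, with the highest I/R library far under the lowest sham library. It fell by 1.17 on the log2 scale, a 2.25-fold fall from 30.9 ± 2.24 to 13.8 ± 2.95 CPM (SE 0.16, 95% interval -1.54 to -0.80, edgeR adjusted p 0.00144).

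The corepressors that bind EGR proteins and curb them showed small differences. Nab1 rose from 31.3 ± 1.98 to 39.7 ± 3.34 CPM (log2 fold change 0.34, edgeR adjusted p 0.0287). Nab2, itself a target of EGR factors, was at 29.3 ± 2.95 CPM in sham and 24.2 ± 0.89 CPM in I/R and was not called (log2 fold change -0.28, edgeR adjusted p 0.0658).

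**Figure D2:**
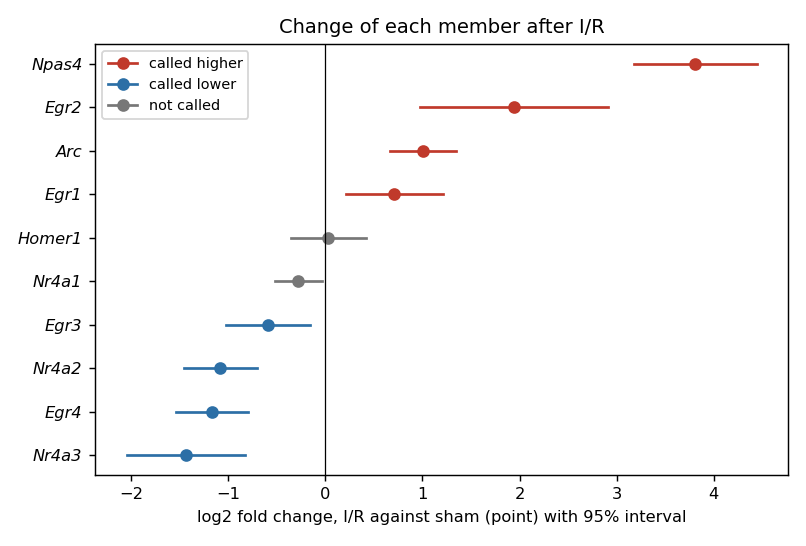
Log2 fold change of each gene, I/R against sham (points), with its 95% interval from the edgeR fit (lines), ordered from the largest rise to the largest fall. Red genes were called higher, blue genes lower and grey genes neither. The interval of Homer1 ran from -0.35 to 0.42 and that of Npas4 from 3.18 to 4.44.

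The Nr4a genes fell or were not called, and none rose. They encode nuclear receptors that work without a known natural ligand and that switch on metabolic, survival and memory genes in neurons, and NR4A1 and NR4A3 have roles in macrophages too. Nr4a1 lies on chromosome 15 from 99332354 to 99340218 on the plus strand. It was at 50.8, 47.4 and 41.2 CPM in I/R and 60.3, 55.3 and 53.3 CPM in sham. The I/R libraries were all below the sham libraries by a small margin. The gene was not called, with a log2 fold change of -0.28 (SE 0.10, 95% interval -0.52 to -0.04, edgeR adjusted p 0.0640). Without I/R replicate 1 it was called lower (log2 fold change -0.35, edgeR adjusted p 0.00429), while scaling to the total count alone left it at -0.02. Its adjusted p over all alternatives ran from 0.00429 to 0.921.

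Nr4a2, which dopamine neurons also need, lies on chromosome 2 from 54543807 to 54562216 on the minus strand. It was at 23.1, 26.0 and 34.9 CPM in I/R and 58.1, 66.4 and 53.2 CPM in sham. The groups did not overlap, and I/R replicate 3 was the closest to sham. It fell by 1.08 on the log2 scale, a 2.11-fold fall from 59.2 ± 6.69 to 28.0 ± 6.16 CPM (SE 0.16, 95% interval -1.46 to -0.70, edgeR adjusted p 0.00203).

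Nr4a3 had the largest fall of the 10 genes. It lies on chromosome 4 from 44835915 to 44877207 on the plus strand. It was at 19.2, 38.7 and 43.0 CPM in I/R and 97.8, 83.6 and 90.7 CPM in sham. All I/R libraries were far below sham, and I/R replicate 1 was the lowest. It fell by 1.43 on the log2 scale, a 2.70-fold fall from 90.7 ± 7.10 to 33.6 ± 12.7 CPM (SE 0.26, 95% interval -2.04 to -0.82, edgeR adjusted p 0.00428). Rxra and Rxrb encode the retinoid X receptors with which NR4A1 and NR4A2 can pair, and Rxrb was called lower (log2 fold change -0.34, edgeR adjusted p 0.0255) while Rxra was not called (-0.07, adjusted p 0.737). These receptors, like Arnt, Sh3gl1, Sh3gl3, P2ry12 and Tmem119, were named after their values had been seen.

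Ratios between relatives within a library, taken after adding 0.1 CPM to each, hardly depend on how libraries are scaled, so they were used to compare the changes of the members of each family. The ratio was formed for the 6 pairs of Egr genes and the 3 pairs of Nr4a genes, and in 8 of these 9 pairs the groups were apart, with all I/R ratios above or all below the sham ratios. Over all 172394596 pairs of tested genes, 55.0% were apart in this way. The log2 ratio of Egr2 to Egr4 was -0.20, -1.48 and -1.87 after I/R, against -3.63, -4.36 and -4.63 after sham operation. The mean of this ratio was 3.02 higher in I/R, the largest shift of the 9. The steadiest ratio was that of Egr3 to Egr4, the relatives that fell, at 1.43, 1.62 and 1.46 after I/R, against 0.91, 0.97 and 0.95 in sham. With this shift of 0.56, every I/R library had less Egr4 relative to Egr3 than any sham library. The ratio of Egr1 to Egr3 was 1.29 higher in I/R, that of Egr1 to Egr4 1.85 higher, that of Egr2 to Egr3 2.46 higher and that of Egr1 to Egr2 1.17 lower on the log2 scale (difference -1.17). Among the Nr4a genes, the log2 ratio of Nr4a1 to Nr4a3 was 1.40, 0.29 and -0.06 after I/R, against -0.70, -0.60 and -0.77 in sham, and the mean was 1.23 higher. That of Nr4a1 to Nr4a2 was 0.81 higher in I/R. Nr4a2 to Nr4a3 was the pair that overlapped, at 0.27, -0.57 and -0.30 after I/R, against -0.75, -0.33 and -0.77 in sham, so unequal change of these genes was not shown. The exact two-sided permutation p was 0.1, the smallest possible, for each of the 8 pairs and 0.2 for the last, and 0.113 and 0.2 after Benjamini-Hochberg adjustment over the 9 pairs. No pair could pass 0.05 in this design.

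**Figure D3:**
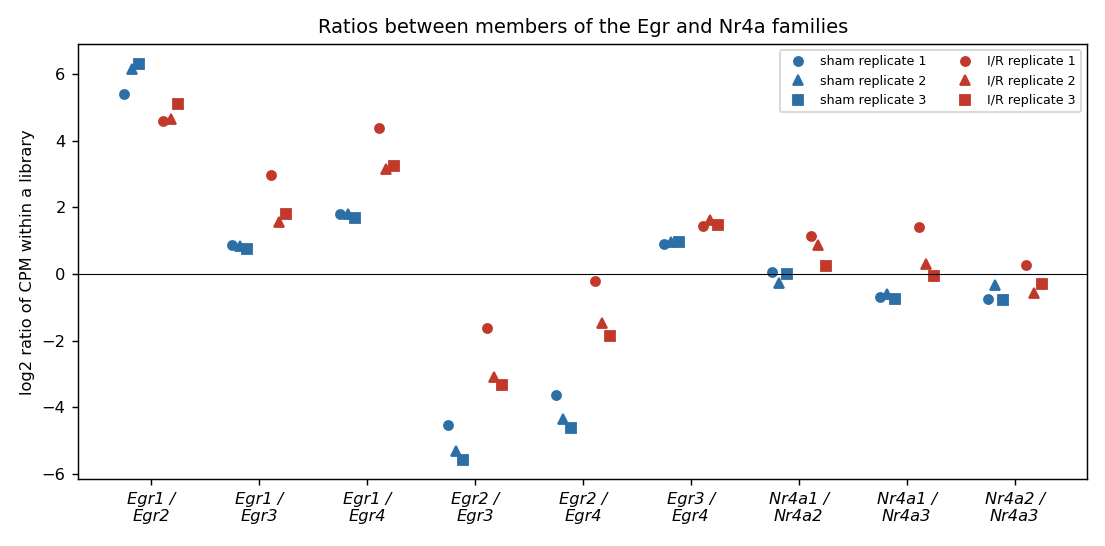
Log2 ratio of the CPM of relatives within each library for the 6 pairs of Egr genes and the 3 pairs of Nr4a genes, with sham in blue, I/R in red and 1 symbol per replicate. Groups were apart in 8 pairs, most for Egr2 to Egr4 (a difference of 3.02), and overlapped for Nr4a2 to Nr4a3.

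The members that work at the synapse behaved differently from each other. Arc, whose protein removes AMPA-type glutamate receptors from the synapse by endocytosis and forms capsid-like shells, rose. It lies on chromosome 15 from 71799325 to 71802812 on the minus strand. It was at 223, 258 and 180 CPM in I/R and 113, 119 and 97.4 CPM in sham. The groups were apart, with the lowest I/R library well above the highest sham library. The mean rose 2.01-fold from 110 ± 11.0 to 220 ± 39.3 CPM (log2 fold change 1.004, SE 0.15, 95% interval 0.67 to 1.34, edgeR adjusted p 0.00176). Of the endocytic proteins that bind Arc, Dnm2, which encodes dynamin 2, rose from 64.9 ± 2.40 to 98.7 ± 16.5 CPM (log2 fold change 0.61, edgeR adjusted p 0.00587), Sh3gl3 fell by 0.50 on the log2 scale (adjusted p 0.00921), and Sh3gl1 was not called (-0.03, adjusted p 0.850).

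Homer1 encodes scaffold proteins of the postsynaptic density that tie metabotropic glutamate receptors to calcium stores, and a short form induced by activity that loosens this link. It lies on chromosome 13 from 91772033 to 91872829 on the plus strand. It was at 101, 166 and 137 CPM in I/R and 140, 125 and 130 CPM in sham. The groups overlapped, with I/R replicate 1 below and I/R replicate 2 above all sham libraries. The log2 fold change was 0.03 (SE 0.17, 95% interval -0.35 to 0.42, edgeR adjusted p 0.891), an interval that allows a difference of that size in either direction. The table counts reads per gene, so the short and long forms, which differ in length (GENCODE M21 lists 12 transcripts of 625 to 5713 bases), cannot be told apart and a shift between them would not be seen.

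Homer2 and Homer3, relatives of Homer1, fell, as did a receptor and a calcium channel that Homer proteins link. Homer2 fell from 130 ± 3.18 to 58.4 ± 12.6 CPM (log2 fold change -1.15, edgeR adjusted p 0.00129) and Homer3 from 55.7 ± 3.70 to 30.8 ± 10.9 CPM (-0.86, adjusted p 0.0218). Grm5, a metabotropic glutamate receptor that Homer proteins hold, fell by 1.13 on the log2 scale (edgeR adjusted p 0.00675). Itpr1, the calcium release channel on the other end of the link, fell from 505 ± 22.0 to 146 ± 38.2 CPM (log2 fold change -1.79, edgeR adjusted p 0.000664), and Shank3, the scaffold beneath, fell from 394 ± 9.03 to 160 ± 32.0 CPM (-1.30, edgeR adjusted p 0.000879). Of 21 partners of the members, including those above, 2 were called higher and 13 lower, with a median log2 fold change of -0.50, beside 21.8% and 19.9% of all genes tested.

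Levels of different genes can be set side by side only per length, for which the deposited FPKM (fragments relative to gene length and to the counted reads of the library) were used. In sham the order was Homer1 at 59.1 ± 3.79 FPKM, Egr3 at 38.6 ± 2.99, Arc at 32.9 ± 3.17, Nr4a2 at 27.3 ± 2.91, Nr4a3 at 25.6 ± 2.18, Egr1 at 25.5 ± 2.60, Nr4a1 at 20.8 ± 1.41, Egr4 at 13.2 ± 0.87, Npas4 at 2.92 ± 0.41 and Egr2 at 0.97 ± 0.39 FPKM (SD, n = 3). The libraries of Arc and Nr4a2, of Nr4a2 and Nr4a3 and of Nr4a3 and Egr1 overlapped, so these neighbours do not differ beyond their spread, while Npas4 and Egr2 lay far below the rest. In I/R the order was Arc at 78.7 ± 14.5 FPKM, Homer1 at 71.7 ± 14.8, Egr1 at 50.3 ± 19.1, Npas4 at 49.2 ± 17.2, Egr3 at 30.4 ± 7.80, Nr4a1 at 20.6 ± 2.99, Nr4a2 at 15.4 ± 2.90, Nr4a3 at 11.2 ± 3.86, Egr4 at 6.97 ± 1.28 and Egr2 at 4.53 ± 2.36 FPKM. Npas4 moved from the ninth place to the fourth, but in I/R the libraries of all neighbours in the order overlapped except Egr3 and Nr4a1, so most of these places, that of Npas4 included, are not firm. The order rests on the gene length used. For 5 members the deposited FPKM imply a shorter length than the table lists, and with the listed length Homer1 would be at 21.1 FPKM in sham, in the fourth place behind Egr3, Arc and Egr1. In I/R the listed length would put Npas4, at 49.2 FPKM, in the second place after Arc, followed by Egr1 at 42.4, Egr3 at 30.4 and Homer1 at 25.6 FPKM. Egr3 is listed with 1416 bases, while its longest transcript in GENCODE M21 has 3940.

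Replicates after I/R differed more than in sham for every member. The CV of the 10 genes ran from 10.5% for Nr4a1 to 47.5% for Egr2 in I/R and from 5.76% for Homer1 to 40.0% for Egr2 in sham. The median CV over 15481 genes with a mean of at least 1 CPM was 14.1% in I/R and 7.30% in sham. I/R replicate 1 held the lowest value of its group in 5 members (Egr3, Egr4, Nr4a2, Nr4a3 and Homer1) and the highest in 3 (Egr1, Egr2 and Nr4a1), and I/R replicate 3 held the lowest value in the other 5, Npas4 and Arc among them.

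For each member the tested genes with the most similar pattern were found by the root mean square (RMS) difference of log2(CPM + 0.1), centred on the sham mean, over the 6 libraries and 13645 named genes with a mean of at least 1 CPM. This is a description of likeness in 6 libraries and rests mostly on the size of the change. The closest to Npas4 was Anxa2, which encodes annexin A2 (RMS difference 0.26), followed by Ch25h, which encodes cholesterol 25-hydroxylase (0.28), both farther from it than the closest gene of any other member was from its own. Egr2 was nearest to Irak3 (0.17) and Birc3 (0.18), which act in innate immune signalling. Egr3 was nearest to Adrb1, the beta-1 adrenergic receptor (0.03), Egr4 to Trerf1 (0.09) and Cacna1i, a T-type calcium channel (0.09), and Nr4a3 to Grin2b, an NMDA receptor subunit (0.05), and Cdk14 (0.06). Nr4a2 was nearest to Fam78a (0.05) and Trpm2, a calcium-permeable channel (0.06). Egr3 was followed by Pde4a (0.07). Egr1 was nearest to Atad3a and Fzd1 (0.05 each), Nr4a1 to Nudt6 and Zfp710 (0.04 each), Arc to Gm10709 (0.09) and Trdmt1 (0.11), and Homer1 to Mtmr1 (0.03) and Rem2 (0.06).

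Other early response genes, which many cell types induce, moved largely 1 way. Of 33 such genes tested, 30 were called higher and 0 lower, with a median log2 fold change of 1.33, beside 21.8% of all genes called higher and 4 of the 10 members. The lowest adjusted p values among them were those of Rgs2, a brake on G protein signalling (log2 fold change 2.20, SE 0.10, edgeR adjusted p 7.57e-05), and Trib1, a pseudokinase (2.11, SE 0.15, edgeR adjusted p 0.000215). Jund, Dusp5 and Plk2, named here because they were the 3 not called, had log2 fold changes of 0.08, 0.41 and 0.37.

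The late effectors, secreted and synaptic proteins that follow the early factors, were mixed. Of 22, 8 were called higher and 5 lower, with a median of 0.10, beside 21.8% and 19.9% of all genes tested. Nptx2, a secreted pentraxin that gathers AMPA receptors, rose from 38.6 ± 2.35 to 322 ± 35.3 CPM (log2 fold change 3.06, SE 0.12, edgeR adjusted p 4.45e-05). Acan, which encodes aggrecan of the extracellular matrix, rose from 7.63 ± 0.95 to 180 ± 74.5 CPM (4.56, SE 0.32). Pdyn, the dynorphin precursor, fell from 13.7 ± 1.80 to 2.74 ± 0.12 CPM (-2.33, SE 0.16), and Sst, which encodes somatostatin, fell from 312 ± 24.2 to 210 ± 24.5 CPM (-0.57, SE 0.12).

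Genes upstream of the members were tested as a pair of lists. Of 16 transcription factors and coactivators that act on early genes, 4 were called higher and 5 lower, with a median of -0.08, against 21.8% and 19.9% of all genes. Crtc2 and Crtc1, related coactivators of CREB, went in opposite directions, with log2 fold changes of 0.92 (SE 0.14, edgeR adjusted p 0.00180) and -1.28 (SE 0.19, adjusted p 0.00193). Crem, a relative of CREB that is also in the early response list, rose by 0.91 and Mkl2, a coactivator of SRF, fell by 0.71. With scaling to the total count alone, 7 were called higher and 3 lower. Of 26 genes of calcium entry and kinase signalling, 3 were called higher and 19 lower, with a median of -0.76, against 19.9% of all genes called lower. Camkk2, a calcium-dependent kinase kinase, fell by 1.48 (SE 0.10, edgeR adjusted p 0.000215) and Cacna1c, the main L-type calcium channel, by 0.59 (SE 0.08), while Rps6ka3, a kinase that phosphorylates CREB, rose by 1.08 (SE 0.11).

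**Figure D4:**
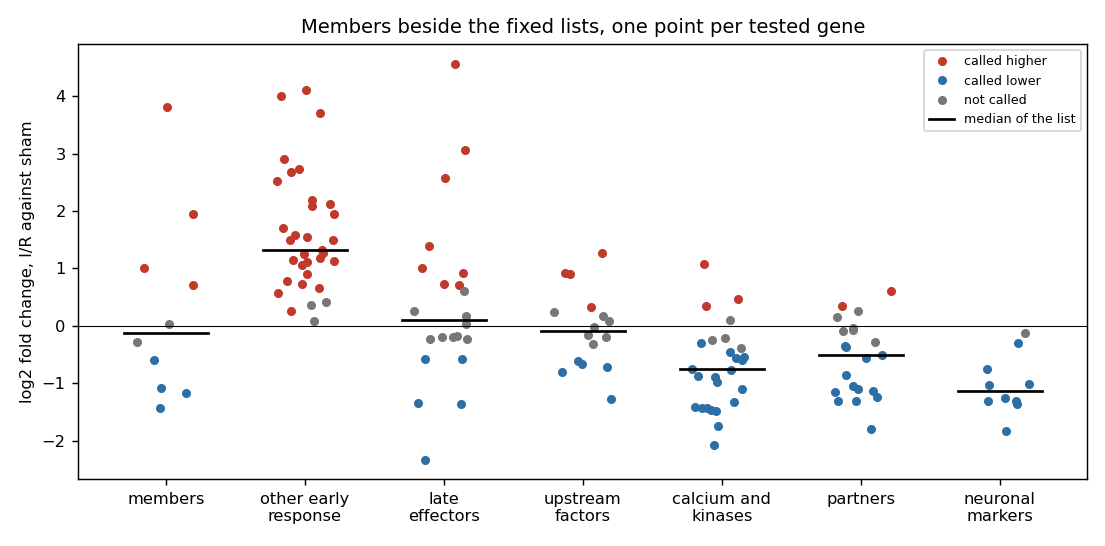
Log2 fold change, I/R against sham, of the 10 members, of the 5 lists of related genes and of the neuronal markers (1 point per tested gene, shifted sideways at random for legibility), with red for called higher, blue for called lower, grey for not called and a bar at the median. The medians were -0.12 for the members, 1.33 for other early response genes, -0.76 for calcium and kinase genes and -1.14 for neuronal markers.

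The 5 lists held 33, 22, 16, 26 and 21 tested genes, with Crem shared. Over the 5 lists together, 46 genes were called higher and 42 lower, beside 21.8% and 19.9% of all genes tested. With scaling to the total count alone, 56 list genes were called higher and 30 lower. Over all genes, 6334 were then called higher and 2027 lower in place of 4054 and 3702, with a median log2 fold change of 0.28. The directions of the 9 members other than Homer1 were the same under this scaling and under every other alternative tried.

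Markers of cell types changed in the same comparison and are given beside the members. Markers of granule cells and pyramidal cells were present, with Prox1 and Wfs1 at 138 ± 13.4 and 147 ± 16.4 CPM in sham. No other brain region was measured, so these levels do not test the hippocampal label. Of 10 neuronal markers 9 were called lower and 0 higher, and their summed level was 2420, 4763 and 5223 CPM in I/R replicates 1, 2 and 3 and 9628 to 10052 CPM in sham. Rbfox3, which encodes NeuN, fell by 0.75 and Tubb3 by 1.02 on the log2 scale. All 9 markers of dentate granule cells were called lower, with a summed level of 274 to 431 CPM in I/R and 740 to 814 CPM in sham, and Prox1 and C1ql2 fell by 0.77 and 1.39. Of 10 markers of CA pyramidal cells 7 were called lower and 1 higher, with a sum of 369 to 696 CPM in I/R and 1163 to 1231 CPM in sham, and Wfs1 and Fibcd1 had log2 fold changes of -0.97 and -1.996. None of these markers was at 0 in any group. The 4 members that fell did so by 0.59 to 1.43 on the log2 scale, beside a median of -1.14 for the neuronal, -1.39 for the granule cell and -1.09 for the pyramidal cell markers. Npas4, Arc, Egr1 and Egr2 rose in the same libraries. The part of the neuronal markers in either result was not tested.

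Markers of other cell types went both ways. Most of the tested markers of monocytes, neutrophils, endothelium and microglia were called higher, while more markers of astrocytes and oligodendrocytes were called lower than higher. Of 9 microglial markers tested 6 were called higher and 2 lower (527 to 749 CPM summed in I/R, 332 to 363 CPM in sham), with Aif1 and Cx3cr1 up by 0.76 and 0.48 and the 2 that fell, P2ry12 and Tmem119, at -1.67 and -0.68, while Itgam had 0 counts in every library. Of 5 monocyte and macrophage markers tested 4 were called higher (98.2 to 226 CPM in I/R, 8.72 to 10.9 CPM in sham), including Ccr2 and Lyz2 at log2 fold changes of 3.27 and 2.21. Ccr2 was low in sham, at 0.15 CPM, and passed the filter through its I/R counts. Plac8 was not tested, with 0 counts in sham and 0.37, 0 and 0.30 CPM in I/R. Of 8 neutrophil markers listed, 4 passed the filter on low counts, and all 4 were called higher. Their sham means were 0.28 CPM for S100a8, 0.42 for S100a9 and, under the floor, 0.086 for Retnlg and 0.044 for Mmp8. They passed the filter through their I/R counts, so a fall could hardly have been called. The sum over all 8 listed was 32.4, 7.90 and 6.43 CPM in I/R and 0.38 to 1.59 CPM in sham. S100a8 and S100a9 had log2 fold changes of 4.66 and 3.78. Of those not tested, Ngp and Cxcr2 had 0 counts in sham. In I/R, Ngp was at 0.11, 0 and 0 CPM and Cxcr2 at 1.91, 0.25 and 0.23 CPM. Camp and Ltf had means under the floor in both groups. The microglial, monocyte and neutrophil sums were highest, and the neuronal sum lowest, in I/R replicate 1. In that library Egr1 and Egr2 were highest and Egr3, Egr4, Nr4a2, Nr4a3 and Homer1 lowest. The members did not share 1 order over the I/R libraries. Egr3, Egr4 and Homer1 were highest in I/R replicate 2, while the neuronal sum was highest in I/R replicate 3. Npas4 and Arc were highest in I/R replicate 2, at 179 and 258 CPM, and Nr4a1, which lay below sham, was highest in I/R replicate 1. Of 7 endothelial markers 6 were called higher and 1 lower (362 to 548 CPM in I/R, 264 to 265 CPM in sham), with Pecam1 and Cldn5 up by 1.92 and 0.76. Of 8 astrocyte markers 2 were called higher, Gfap (2.31) and Aqp4 (0.52), and 4 lower. Of 7 oligodendrocyte markers 0 were called higher and 3 lower, with log2 fold changes of 0.51 for Mag, not called, and -0.43 for Mal. The part of these cells in the changes of the Egr, Nr4a and Npas4 transcripts was not tested.

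Choroid plexus and striatal markers were checked because dissection can bring in neighbouring tissue. Of 8 choroid plexus markers 0 were called in either direction by edgeR, and Ttr and Kcnj13 had log2 fold changes of -0.40 and -0.34. Without I/R replicate 3 and sham replicate 1, the libraries low in these markers, 4 members were called higher and 3 lower. Egr3 was no longer called (edgeR adjusted p 0.143). Of all genes tested in this fit, 14.9% were called higher and 13.1% lower, in place of 21.8% and 19.9%. Of 7 striatal markers 1 was called higher and 2 lower, with a sum of 104 to 147 CPM in I/R and 194 to 221 CPM in sham. Drd1 and Drd2, receptors of striatal neurons, had log2 fold changes of 0.81 and -0.21.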

How the data were processed

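RNA-seq of hippocampus was analysed for 3 I/R and 3 sham libraries, with groups taken from their titles. By the methods, the authors aligned reads with TopHat2 to an Ensembl genome and counted reads per gene with HTSeq, and the raw counts were deposited. The authors also deposited FPKM, computed from these counts and gene lengths, which were used here for levels between genes only. The submitters' processing notes name Bowtie 0.12.2 and mm8, while 40303 of the identifiers are of the BALB/cJ annotation, another strain than the mice. No coordinates were moved between builds. Strand use in counting was not stated, and no other row of the table overlapped a member. The table's 41390 lines held 41386 genes after 4 split lines were rejoined. The authors' own fold changes and p-values were not used.

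Counts were filtered by filterByExpr, scaled by TMM and tested with edgeR 4.0.16 in R 4.3.3 (glmQLFit with robust estimation, glmQLFTest, no covariates), with Benjamini-Hochberg adjustment over 18569 genes. The fit was tested on simulated counts. The SE is the log2 fold change divided by the square root of F, and a permutation test of CPM is given as a description. The members and lists were chosen with earlier results of these data known. The lists were other early response genes, late effectors, upstream transcription factors, calcium and kinase genes, partners of the members, and markers of neurons, granule cells, pyramidal cells, microglia, monocytes, neutrophils, astrocytes, endothelium, oligodendrocytes, choroid plexus and striatum. Named were all members, the 2 genes with the lowest adjusted p in each direction of each pathway list, Nab1, Nab2, Homer2, Homer3, Arnt2 and Grm5, the first 2 markers of each cell type, and the 2 genes most like each member. Some genes that this rule picks are not reported here. Motifs were searched in RefSeq promoter windows of GRCm38.p6. Alternatives were other scalings and filters, DESeq2 1.42.0, limma 3.58.1 (voom, and log2 FPKM with pseudocounts of 1 and 0.1), a fold of 2, unadjusted p-values, a replicate block, a choroid plexus covariate, the listed gene length, and leaving out each library. Floors and intervals cover counting error and the spread between pools only.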

Additional observations from a re-analysis of the deposited data

How the results depend on the processing

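Under the 20 alternatives tried for each gene, Npas4 (log2 fold change 3.62 to 4.11), Arc (0.85 to 1.26), Egr2 (1.42 to 2.57), Egr4 (-1.36 to -0.84), Nr4a2 (-1.30 to -0.80) and Nr4a3 (-1.68 to -1.15) stayed called in their direction. Egr1 lost its call in 5 and Egr3 in 10, as given with each gene and also with a fold over 2. With log2(FPKM + 1) and log2(FPKM + 0.1), Egr3 was at -0.36 and -0.37. Nr4a1 was called with unadjusted p-values. Homer1 turned to -0.17 without I/R replicate 2, -0.0071 without I/R replicate 3 and -0.012 without sham replicate 2, within a range of -0.17 to 0.20 over the left-out libraries. The cause of these changes was not tested.

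Leaving out each library gave 3 to 4 members called higher and 3 to 5 lower. Among list genes, 38 to 49 were called higher and 31 to 45 lower. Over all genes tested, 15.2% to 21.4% were called higher and 12.7% to 21.2% lower in these fits. A fold over 2 left 21 list genes called lower, and 2760 of all genes in place of 7756. With the listed gene length the sham levels were 21.5 FPKM for Egr1, 0.513 for Egr2, 15.4 for Nr4a2, 14.5 for Nr4a3 and 21.1 for Homer1.

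With the replicate number as a block, 4 members were called higher and 4 lower, 41 list genes higher and 38 lower, and 6332 genes in all. The numbers did not pair the samples (correlations of deviations of same-numbered libraries of -0.16, 0.06 and -0.28), so this fit is no paired analysis. Pools, 3 libraries a group and 1 time limit these values, and Egr2, at 37 to 93 counts in sham, is the least precise.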
